A study of Rattus norvegicus with 12 samples.

Results

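Hsd11b1, Hsd11b2, Hsd17b2, Hsd17b4, Hsd17b11, Sult1a1, Sult1e1 and Akr1c14 encode enzymes that switch steroid hormones on or off inside the tissue that responds to them. They were taken by name, as the probe sets whose annotation holds exactly 1 of these symbols, and each symbol had 1 such probe set. The 8 genes are among 14511 genes measured in rat uterus, and 6 of them are among the 10158 genes bright enough to be tested. Hsd17b2 and Sult1e1 lie in the 30% of genes with the lowest mean, at a mean log2 level under 6.44, an intensity of about 71.0. They are described by their values. In the array's annotation the probe sets are 10770795 for Hsd11b1, 10807272 for Hsd11b2, 10811341 for Hsd17b2 and 10801653 for Hsd17b4. The others are 10771224 for Hsd17b11, 10725782 for Sult1a1, 10771901 for Sult1e1 and 10799346 for Akr1c14. The Sult1e1 probe set lists its symbol under 2 gene IDs.

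RNA came from the whole uteri of young adult female Lewis rats whose ovaries, the main source of estrogens, had been removed. All 4 groups share the ovariectomy and the solvent DMSO is the vehicle. Vehicle rats received DMSO, E2 rats received estradiol at 4 µg/kg per day, and 3-MC rats received 3-methylcholanthrene at 15 mg/kg per day. E2+3-MC rats received both. 3-Methylcholanthrene is a combustion-type pollutant and a strong ligand of the aryl hydrocarbon receptor. Dosing lasted 3 days, the uterus was taken 24 h after the last dose, and each group holds 3 rats with 1 array each. In a whole uterus, fewer cells of a type and less RNA per cell cannot be told apart.

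Many steroid targets set their own hormone level with pairs of enzymes that work in opposite directions. In rats, HSD11B2 oxidises corticosterone to a form that does not bind corticosteroid receptors, and HSD11B1 regenerates corticosterone from it. HSD17B2 oxidises estradiol to the weaker estrogen estrone, and sulfotransferases attach a sulfate that keeps estrogens from their receptor, which steroid sulfatase removes again. Aldo-keto reductases such as AKR1C14 reduce dihydrotestosterone and dihydroprogesterone to less active products. In the uterus the inactivating enzymes among these are known above all for limiting how long estradiol, progesterone and glucocorticoids act on epithelium and stroma.

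Values are intensities on the deposited linear scale, and tests used log2(intensity + 16). Array medians ran from 86.3 to 124 and rats of the same group correlated at 0.947 to 0.987 across genes. Vehicle rat 1 stood apart, where the middle 50% of log2 values spanned 2.70 and those of the remaining 11 arrays 1.87 to 2.35. Among the 3 vehicle rats it had the highest value for 81.0% of tested genes and for all 6 tested enzyme genes, and the lowest for Hsd17b2 and Sult1e1. Values without this rat are therefore given beside the differences from vehicle that depend on it. Markers of the uterus were present on every array: the estrogen receptor gene Esr1 lay between 1396 and 3617 and the progesterone receptor gene Pgr between 1162 and 2957. Most liver markers (Apoa1, Apoa2, Ttr, Fgb, Cyp2c11 and Hpx) and most ovary and adrenal markers (Inha, Fshr, Cyp11b1, Cyp11b2 and Gdf9) were below the limit for testing. The other measured ones were above it. Their highest values were 147 for Alb, 527 for Serpina1, 510 for Tf, 134 for Amh, 211 for Lhcgr and 128 for Zp3.

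The stretch from 250 bases before to 50 bases after the gene start was available for 5 of the 8 genes, Hsd17b4, Hsd17b11, Sult1a1, Sult1e1 and Akr1c14, from RefSeq on build GRCr8. Sult1a1, Sult1e1 and Akr1c14 are shown because the clearest differences among these 5 genes are theirs. Each of the 5 windows was searched on both strands for GGTCA, the core an estrogen receptor monomer contacts. GCGTG, the core bound by the aryl hydrocarbon receptor, was searched in the same way. They were also searched for GGTCA followed after 3 bases by TGACC, the full palindrome, which contains the shorter core. Capitals mark matches.
Sult1a1, chr1:190706063-190706362, minus strand: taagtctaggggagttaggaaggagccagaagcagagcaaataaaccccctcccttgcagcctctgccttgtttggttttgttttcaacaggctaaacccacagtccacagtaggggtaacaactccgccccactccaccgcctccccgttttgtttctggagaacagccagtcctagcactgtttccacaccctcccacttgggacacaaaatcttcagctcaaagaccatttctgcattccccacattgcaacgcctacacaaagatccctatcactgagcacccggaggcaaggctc
Sult1e1, chr14:20701230-20701529, plus strand: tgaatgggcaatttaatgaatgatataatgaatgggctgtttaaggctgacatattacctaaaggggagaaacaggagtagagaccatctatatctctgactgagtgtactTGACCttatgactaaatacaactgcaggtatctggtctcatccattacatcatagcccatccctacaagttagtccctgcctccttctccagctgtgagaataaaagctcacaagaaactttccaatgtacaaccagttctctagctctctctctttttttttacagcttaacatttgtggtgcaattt
Akr1c14, chr17:71083135-71083434, minus strand: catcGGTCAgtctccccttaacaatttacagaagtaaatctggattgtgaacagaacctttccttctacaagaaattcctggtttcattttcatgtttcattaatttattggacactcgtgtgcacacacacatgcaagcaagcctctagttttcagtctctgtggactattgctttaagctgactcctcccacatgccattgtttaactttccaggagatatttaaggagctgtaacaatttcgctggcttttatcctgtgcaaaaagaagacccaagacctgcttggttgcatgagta
The Sult1e1 window holds TGACC from base -139 and the Akr1c14 window holds GGTCA from base -246, counted from the gene start. The Sult1a1 window holds neither core. Of the windows not shown, that of Hsd17b4 holds GGTCA from base -55, CACGC from base -103 and GCGTG from base 30. That of Hsd17b11 holds CACGC from base -22 and no estrogen receptor core. CACGC is GCGTG read on the other strand. None of the 5 windows holds the palindrome, which 9 of 33469 rat promoters of this length (0.0269%) hold. The estrogen receptor core is in 40.5% of these promoters and the aryl hydrocarbon receptor core in 29.7%, so a match describes the letters only.

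Of the 6 tested enzyme genes, 3 differed between E2 and vehicle: Hsd11b2 and Hsd11b1 rose and Sult1a1 fell. Over all genes tested, 18.2% were called in this comparison at an adjusted p under 0.05 (limma, Benjamini-Hochberg over 10158 genes), 8.69% higher and 9.46% lower. All values of E2 rats lay outside the vehicle range for these 3 genes and for the dim gene Sult1e1, 4 of 8 enzyme genes, against 27.2% of all genes tested. Hsd17b4, Hsd17b11 and Akr1c14 did not pass the test, and the rats overlapped for these and for Hsd17b2. The median difference of all genes tested was -0.11 on the deposited scale and -0.03 after quantile normalization.

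**Figure D1:**
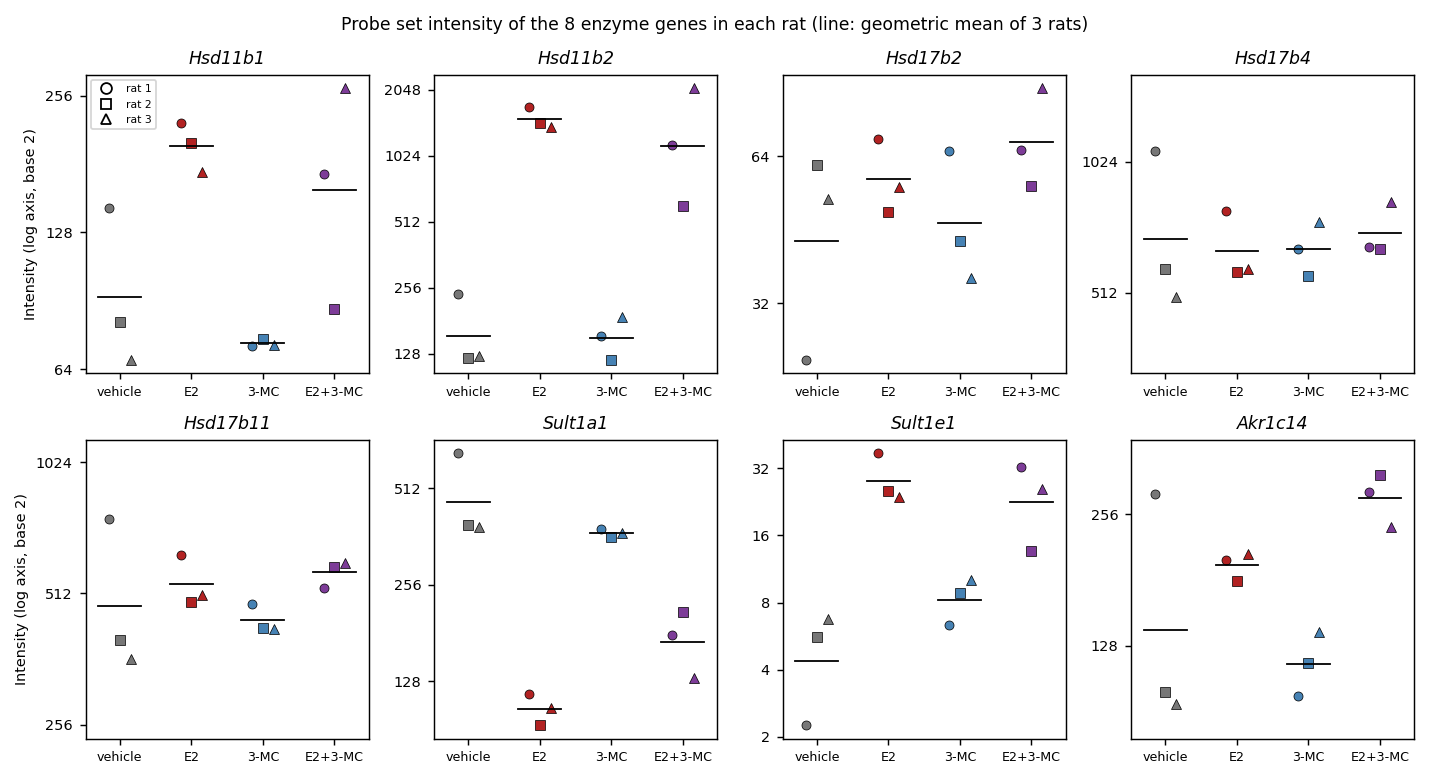
Intensity of each of the 8 enzyme genes in every rat, on a log axis, with 1 panel per gene, 1 symbol per rat and a line at the geometric mean of the 3 rats of each group. Hsd11b2 is at 608 or more in all 6 rats given estradiol and at 241 or less in the others, Sult1a1 runs the other way, and vehicle rat 1 is the highest vehicle rat for 6 genes.

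Hsd11b2, which inactivates corticosterone and so keeps it from the mineralocorticoid receptor, showed the widest contrast of the 8 genes. Its intensity was 241, 123 and 126 in the vehicle rats and 1715, 1449 and 1391 in the E2 rats. It was 154, 120.1 and 188 in the 3-MC rats and 1152, 608 and 2089 in the E2+3-MC rats. Every rat given estradiol was higher than every rat not given it, and the 3 E2+3-MC rats were the most spread. E2 minus vehicle was 3.16 ± 0.34 (SE) on the log2 scale, 8.91-fold, with an adjusted p of 4.63e-06. By size it ranked 72 among the 10158 genes tested. E2+3-MC minus 3-MC, which shares no rat with that comparison, was 2.78 ± 0.34 with an adjusted p of 3.4e-05. Both were called under all 18 alternative settings, at 3.00 to 3.45 and 2.35 to 3.22 with 1 rat left out.

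Hsd11b1, which regenerates corticosterone, was higher with estradiol by a smaller amount. Its intensity was 145, 81.1 and 67.1 in the vehicle rats and 223, 201 and 174 in the E2 rats. It was 72.0, 74.4 and 72.6 in the 3-MC rats and 172, 86.8 and 266 in the E2+3-MC rats. The 3-MC rats were close together, whereas the E2+3-MC rats spanned 3.07-fold, and E2+3-MC rat 2 lay within the vehicle range. E2 minus vehicle was 0.98 ± 0.30 with an adjusted p of 0.0318. The call held under 13 of 18 alternatives, and without vehicle rat 1 the difference was 1.26. The adjusted p was 0.0887 without vehicle rat 2, 0.0895 without vehicle rat 3, 0.0945 without E2 rat 1, 0.0935 without E2 rat 2 and 0.0675 without E2 rat 3. E2+3-MC minus 3-MC was also 0.98 ± 0.30, just outside the threshold at an adjusted p of 0.0526, with no overlap between the rats. That adjusted p was 0.0209 after quantile normalization, and 8 of 18 alternatives called the gene.

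Because both corticosteroid enzymes rose, the distance between them on the same array was also read. Hsd11b2 minus Hsd11b1 was 0.65 ± 0.13 (SD, n = 3, log2) in vehicle rats and 2.83 ± 0.07 in E2 rats. It was 0.92 ± 0.31 in 3-MC rats and 2.71 ± 0.16 in E2+3-MC rats. The lowest rat given estradiol, at 2.60, was above the highest rat not given it, at 1.21. The 2 probe sets can differ in sensitivity, so only the change between groups can be read: the distance was wider in every rat given estradiol. Among the E2+3-MC rats, rat 2 was lowest and rat 3 highest for both genes, and the distance varied less than either gene.

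H6pd makes the cofactor that HSD11B1 uses in the endoplasmic reticulum. Its intensity was 252, 91.7 and 84.3 in vehicle rats against 319, 279.8 and 241 in E2 rats. The difference was 1.04 ± 0.29 with an adjusted p of 0.0174, and 14 of 18 alternatives called it. Without vehicle rat 1 it was 1.50, with an adjusted p of 5.31e-07. The call was lost without vehicle rat 2, vehicle rat 3, E2 rat 1 or E2 rat 2, at adjusted p-values up to 0.0764. Nr3c2, the mineralocorticoid receptor gene whose ligand choice HSD11B2 guards, moved the opposite way to Hsd11b2. It was 211, 145 and 131 in vehicle rats and 59.1, 48.0 and 63.2 in E2 rats, a difference of -1.28 ± 0.21 with an adjusted p of 3.75e-04. Nr3c1, the glucocorticoid receptor gene, was -0.56 ± 0.28 with an adjusted p of 0.171. It was -0.15 with an adjusted p of 0.552 without vehicle rat 1, and it was called after quantile normalization and without vehicle rat 3. Of 17 tested genes of the glucocorticoid axis, 2 rose and 5 fell between vehicle and E2, with a median of -0.52 against -0.11 over all genes, of which 18.2% were called. Mt2A and Mt1, metallothionein genes that glucocorticoids and metals induce, had the lowest differences in this list, -3.13 for Mt2A and -2.53 for Mt1, and both passed the test. With 1 rat left out the counts ran from 0 to 3 higher and from 3 to 6 lower.

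**Figure D2:**
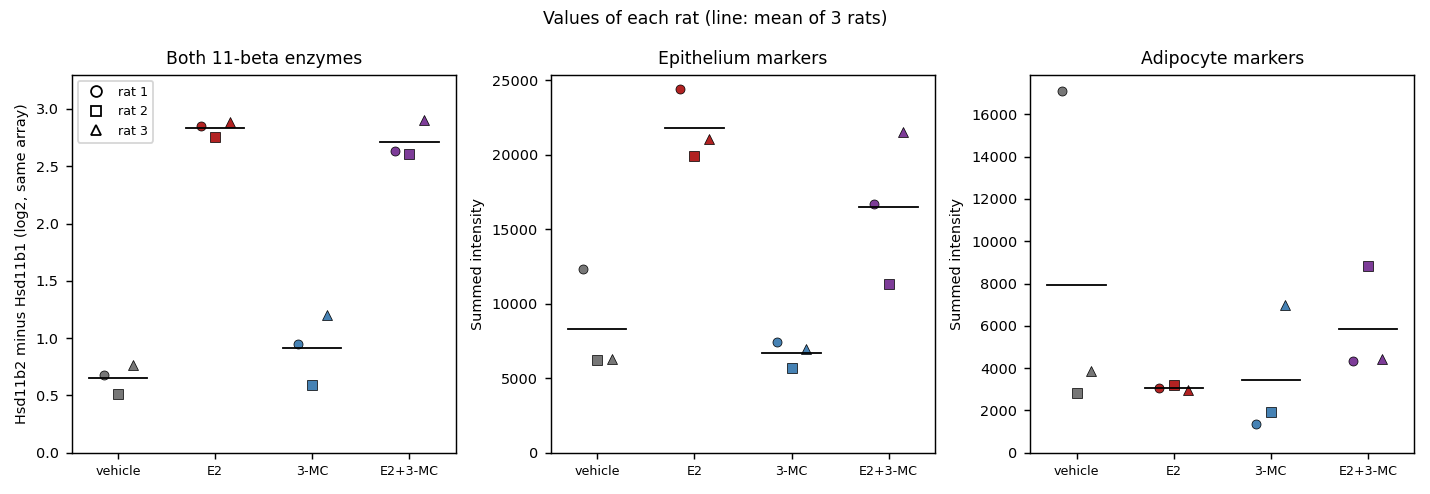
Left, log2 Hsd11b2 minus log2 Hsd11b1 on each array; centre and right, summed intensity of 19 epithelium and 12 adipocyte marker genes, with 1 symbol per rat and a line at the mean of 3 rats. The 6 rats given estradiol are at 2.60 to 2.90 on the left and the other 6 at 0.51 to 1.21, and vehicle rat 1 has the highest adipocyte sum, at 17091.

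Markers of cell types differed between the same groups, and their counts stand against 18.2% of all genes called. The summed intensity of 19 measured epithelium markers was 6244 to 12330 in vehicle rats and 19904 to 24434 in E2 rats. It was 5695 to 7458 in 3-MC rats and 11318 to 21506 in E2+3-MC rats. Of 18 tested epithelium markers, 11 rose and 2 fell between vehicle and E2, with Elf3 at 3.53, Krt8 at 2.93 and Krt19 at 2.65. In the E2+3-MC group, rat 2 had the lowest and rat 3 the highest epithelium sum, as for Hsd11b1, Hsd11b2, Hsd17b2 and Hsd17b4. For Sult1a1 and Akr1c14 rat 2 was the highest and rat 3 the lowest. On the deposited scale Hsd17b11 was highest in rat 3 and lowest in rat 1, and Sult1e1 was highest in rat 1 and lowest in rat 2. For Hsd17b4 rats 1 and 2 were close, at 653 and 646, and rat 1 was the lowest after quantile normalization, at 599. The adipocyte sum of this group was highest in rat 2, at 8833. Leukocyte marker sums were 2296 to 6443 in vehicle rats and 5034 to 7488 in E2 rats, and of 18 tested leukocyte markers 8 rose and 2 fell. Of the other marker lists, endothelium had 0 higher and 9 lower of 13 tested, adipocyte 0 and 7 of 10, smooth muscle 2 and 1 of 13, stroma 3 and 1 of 16 and mesothelium 0 and 3 of 3. Liver had 1 and 1 of 3, and ovary and adrenal 0 and 1 of 3. Several counts turn on 1 rat: with 1 rat left out, lower adipocyte markers ran from 1 to 7, the lowest without E2 rat 2, and higher leukocyte markers from 6 to 13, the highest without vehicle rat 1. Lower endothelium markers ran from 6 to 10, and lower stroma markers from 0 to 4, the highest without vehicle rat 3. Without vehicle rat 1, 2411 of all 10158 genes tested were called higher and 1136 lower. After quantile normalization 3 stroma markers were higher and 6 lower. The part of cell makeup in the enzyme differences was not tested.

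Among the sulfotransferases, Sult1a1, a phenol sulfotransferase that also accepts estrogens, fell with estradiol. Its intensity was 656, 392 and 387 in the vehicle rats and 117, 93.6 and 106 in the E2 rats. It was 383, 361 and 370.0 in the 3-MC rats and 178, 211 and 131 in the E2+3-MC rats. All 6 rats given estradiol were lower than all 6 rats not given it. E2 minus vehicle was -1.99 ± 0.22, 3.96-fold lower, with an adjusted p of 7.16e-06. E2+3-MC minus 3-MC was -1.05 ± 0.22, 2.08-fold lower, with an adjusted p of 0.0055. Both were called under all 18 alternatives, at -2.11 to -1.74 and -1.20 to -0.88 with 1 rat left out.

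Sult1e1, the sulfotransferase with the highest affinity for estradiol, was near the bottom of the measured range. Its intensity was 2.26, 5.60 and 6.73 in the vehicle rats and 37.3, 25.3 and 23.8 in the E2 rats. It was 6.33, 8.81 and 10.1 in the 3-MC rats and 32.3, 13.7 and 25.9 in the E2+3-MC rats. All rats given estradiol were higher than all rats not given it, although every value was under the limit for testing. On the log2(intensity + 16) scale, which understates changes of dim genes, E2 minus vehicle was 1.10 ± 0.20 and E2+3-MC minus 3-MC was 0.68 ± 0.20. With no filter on dim genes, the adjusted p was 0.00143 for E2 minus vehicle, 0.00992 for E2+3-MC against vehicle and 0.0528 against 3-MC. These values lie so close to the floor of the measurement that their exact ratios carry little weight.

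Some genes around these sulfotransferases passed the test as well. Of 13 tested genes of sulfation and desulfation, 4 rose, 1 fell and 8 did not pass between vehicle and E2, against 18.2% of all genes called, with a median of 0.35 against -0.11 over all genes. Papss1, which makes the sulfate donor, was 461, 283 and 203 in vehicle rats and 1637, 1117 and 1234 in E2 rats, a difference of 2.08 ± 0.27 with an adjusted p of 3.25e-05. Sult2a2 and Sult1d1, other cytosolic sulfotransferase genes, rose by 2.07 and 1.96. Sult1c2 rose by 0.82. Sts, the sulfatase that returns estrone sulfate to estrone, was 107, 111 and 91.9 in vehicle rats and 65.0, 57.7 and 60.1 in E2 rats. Its difference was -0.63 ± 0.20 with an adjusted p of 0.0347. It was called under 10 of 18 alternatives, with an adjusted p of up to 0.109, and lost without vehicle rat 2, E2 rat 2, E2 rat 3, any 3-MC rat or E2+3-MC rat 1. With vehicle rat 1 left out, 7 genes of the list rose and 1 fell, while of all 10158 genes tested 2411 rose and 1136 fell. Between 3-MC and E2+3-MC, 5 of the 13 rose and 0 fell, against 8.21% of all genes called (6.82% higher, 1.39% lower). The differences were 1.66 for Papss1, 2.09 for Sult2a2 and 1.11 for the second sulfate donor gene Papss2.

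Hsd17b4 and Hsd17b11 passed the test in no comparison with all 12 rats, and Hsd17b2 was not tested. Hsd17b2, which turns estradiol into estrone, was dim, with 24.5, 61.4 and 52.3 in the vehicle rats and 69.6, 49.3 and 55.4 in the E2 rats. It was 65.6, 43.0 and 36.1 in the 3-MC rats and 65.9, 55.6 and 88.4 in the E2+3-MC rats. Groups overlapped in every comparison, and E2 minus vehicle was 0.30 ± 0.25 (95% interval -0.22 to 0.82). Without vehicle rat 1, its lowest vehicle value, the difference was 0.02. The E2 rats were above the vehicle rats after quantile normalization, where the difference was 0.44.

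Hsd17b4, a peroxisomal enzyme of fatty acid oxidation that can also oxidise estradiol, had similar means in all 4 groups. Its intensity was 1083, 581 and 501 in the vehicle rats and 789, 571 and 582 in the E2 rats. It was 646, 559.5 and 742 in the 3-MC rats and 653, 646 and 825 in the E2+3-MC rats. Groups overlapped in every comparison on the deposited scale, and after quantile normalization the E2+3-MC rats were below the 3-MC rats, at -0.18. Differences between groups were -0.09 to 0.13, each with an SE of 0.25, and E2 minus vehicle was -0.09 (95% interval -0.62 to 0.44, adjusted p 0.843). With 3 rats a group, the values do not tell changes within that interval apart. Without vehicle rat 1 the difference was 0.24, with the sign turned.

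Hsd17b11, a lipid droplet enzyme that oxidises androgen and estrogen metabolites, was 758, 401 and 361 in the vehicle rats and 626, 489.9 and 507 in the E2 rats. It was 483.5, 427 and 424 in the 3-MC rats and 528, 589.9 and 602 in the E2+3-MC rats. E2 minus vehicle was 0.16 ± 0.23 with an adjusted p of 0.677, and vehicle rat 1 alone was above all E2 rats. Without that rat it was 0.48 with an adjusted p of 0.0305. E2+3-MC minus vehicle was 0.57 without that rat, with an adjusted p of 0.0147 against 0.679 with it. After quantile normalization with every rat kept, E2 minus vehicle was 0.13 (adjusted p 0.388) and E2+3-MC minus vehicle 0.13 (adjusted p 0.441). Without vehicle rat 1 the median of all genes tested moved from -0.11 to 0.07 and from 0.05 to 0.23, in the same order. Genes called rose from 1844 to 3547 and from 796 to 2703. The E2+3-MC rats were all above the 3-MC rats, at a difference of 0.36 ± 0.23 with an adjusted p of 0.466, and overlapped them after quantile normalization.

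Akr1c14, a reductase of androgens and progestins, differed between 3-MC and E2+3-MC. Its intensity was 285, 100.3 and 94.2 in the vehicle rats and 202, 181 and 208 in the E2 rats. It was 98.3, 117 and 138 in the 3-MC rats and 288, 316 and 239.9 in the E2+3-MC rats. Vehicle rat 1 was above every E2 rat, whereas the other 2 vehicle rats were below every E2 rat. E2+3-MC minus 3-MC was 1.16 ± 0.29 with an adjusted p of 0.0182, called under 14 of 18 alternatives. The adjusted p was 0.0992 without 3-MC rat 1, 0.0745 without 3-MC rat 2, 0.0709 without E2+3-MC rat 1 and 0.0558 without E2+3-MC rat 2. E2 minus vehicle was 0.44 ± 0.29 with an adjusted p of 0.320, and 0.91 with an adjusted p of 3.36e-04 without vehicle rat 1. E2+3-MC minus vehicle was 0.91 ± 0.29 with an adjusted p of 0.0692, and 1.38 with an adjusted p of 2.93e-06 without that rat. The AKR1C genes are close paralogs, and binding of their transcripts to each other's probes was not tested.

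Vehicle rat 1 also had the highest adipocyte marker sum, 17091, while its group mates were at 2841 and 3871 and the 9 treated rats at 1362 to 8833. Its epithelium sum was 12330 against 6244 and 6277. The part of these markers in its enzyme values was not tested.

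**Figure D3:**
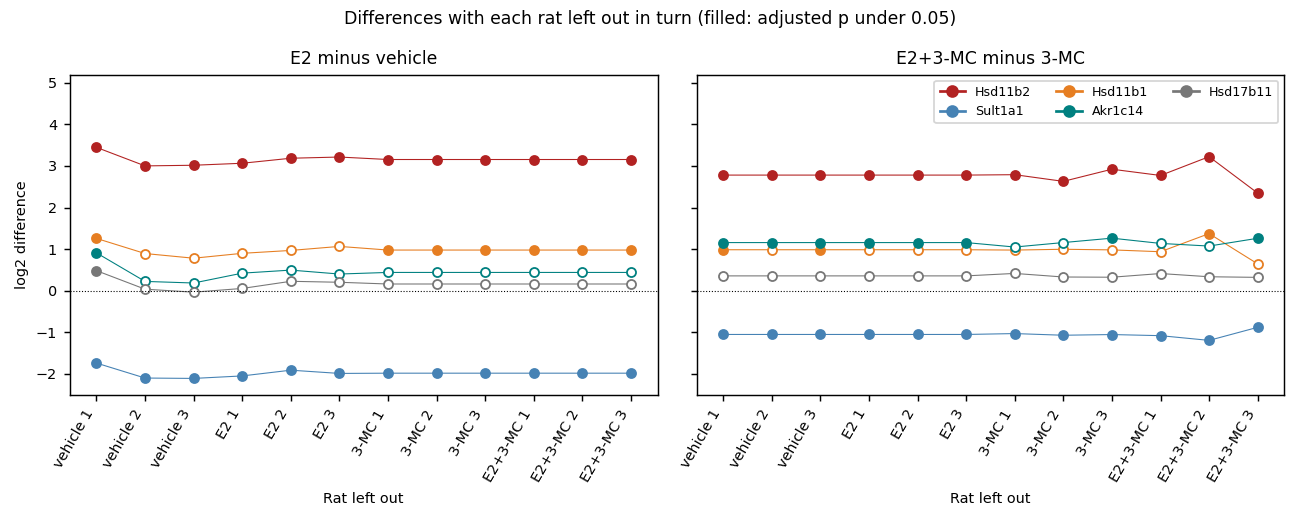
Log2 difference of the 5 named enzyme genes with each rat left out in turn, between vehicle and E2 on the left and between 3-MC and E2+3-MC on the right; filled points have an adjusted p under 0.05. Hsd11b2 and Sult1a1 are filled throughout, whereas Akr1c14 and Hsd17b11 pass between vehicle and E2 only without vehicle rat 1.

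The effect of estradiol was also measured in the presence of 3-MC. In E2+3-MC minus 3-MC, Hsd11b2 and Akr1c14 rose and Sult1a1 fell, 3 of 6 tested enzyme genes against 8.21% of all genes tested (6.82% higher, 1.39% lower). Of all 8 enzyme genes, 5 had every E2+3-MC rat above every 3-MC rat and 1 had every rat below, against 37.3% of all genes in either direction. In E2+3-MC minus vehicle, Hsd11b2 rose by 2.75 ± 0.34 (adjusted p 3.59e-05) and Sult1a1 fell by 1.36 ± 0.22 (adjusted p 5.82e-04). These are 2 of 6 tested enzyme genes against 7.84% of all genes (6.05% higher, 1.78% lower), and 3 of 8 did not overlap against 17.9%. Hsd11b1 was 0.69 ± 0.30 in this comparison with an adjusted p of 0.215, but 0.97 with an adjusted p of 0.00706 without vehicle rat 1 and 1.08 with an adjusted p of 0.0179 without E2+3-MC rat 2. This comparison shares the vehicle rats with E2 minus vehicle and the E2+3-MC rats with the comparison above, so the 3 are not independent of one another.

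**Figure D4:**
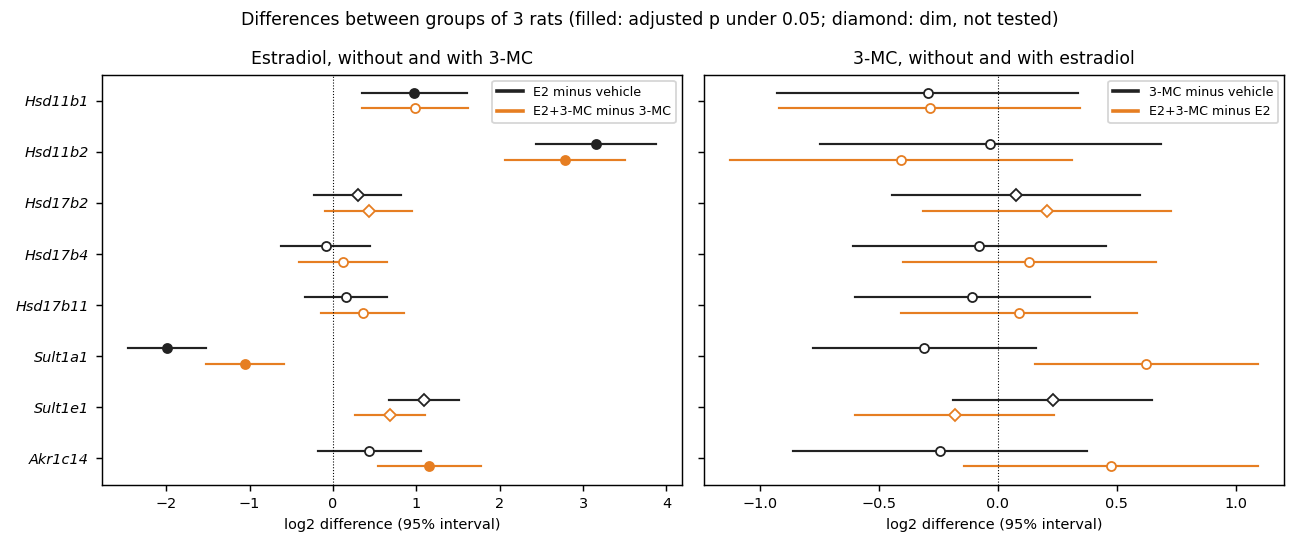
Log2 differences of the 8 enzyme genes with 95% intervals, for estradiol without and with 3-MC on the left and for 3-MC without and with estradiol on the right. Filled circles have an adjusted p under 0.05 and diamonds are dim genes that were not tested; filled points occur on the left only, where Hsd11b2 is at 3.16 and 2.78 and Sult1a1 at -1.99 and -1.05.

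No tested enzyme gene passed the test for 3-MC by itself. Of the 6, 0 were called and 0 had an unadjusted p under 0.05 in 3-MC minus vehicle, where limma called 0.0% of all genes tested and 82 genes had an unadjusted p under 0.05. These 82 are less than a share of 0.05 of the 10158 genes, and the number was 291 without vehicle rat 1. The intervals show what could have been missed: -0.75 to 0.69 for Hsd11b2, -0.93 to 0.34 for Hsd11b1 and -0.86 to 0.37 for Akr1c14. The differences of Hsd11b2 and Akr1c14 without vehicle rat 1 turned from -0.03 to 0.26 and from -0.24 to 0.23, and that of Hsd11b1 went from -0.29 to -0.01. For Sult1a1 the interval was -0.78 to 0.16, and all 3 3-MC rats were below all 3 vehicle rats, with 383 as the highest against 387 as the lowest. It was the only enzyme gene of the 8 whose rats did not overlap, against 3.1% of all genes. Its difference was -0.31 ± 0.22, and -0.07 without vehicle rat 1.

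Adding 3-MC to estradiol gave no call either. In E2+3-MC minus E2 limma called 0.0% of all genes tested, 939 had an unadjusted p under 0.05, and the median of all genes was 0.15. Vehicle rat 1 is not in this comparison but enters the spread shared by the 4 groups. With it left out, limma called 112 genes, 105 higher and 7 lower, and none of them was a tested enzyme gene. Sult1a1 was 0.62 ± 0.22 higher (95% interval 0.15 to 1.09, unadjusted p 0.0122, adjusted p 0.502). Its difference was the same without vehicle rat 1, with an adjusted p of 0.0587. All 3 E2+3-MC rats, at 131 to 211, were above the 3 E2 rats, at 93.6 to 117, but after quantile normalization the difference was 0.41 and the groups overlapped. Akr1c14 was 0.48 ± 0.29 higher (adjusted p 0.617, and 0.109 without vehicle rat 1). Its groups also did not overlap on the deposited scale and overlapped after quantile normalization. For all genes, 17.9% did not overlap. Hsd11b2 was -0.41 ± 0.34 (95% interval -1.12 to 0.31, adjusted p 0.731), with E2+3-MC rats both below and above the E2 rats. Hsd11b1 was -0.29 ± 0.30. Sult1e1 was -0.18 ± 0.20 with overlap, and below without overlap after quantile normalization, at -0.41.

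The interaction asks whether 3-MC acted differently with estradiol than without it. It was called for 0.0% of all genes tested, and its median over all genes was 0.19 on the deposited scale. By limma, 299 genes had an unadjusted p under 0.05, and 492 without vehicle rat 1. Sult1a1 had the largest value among the enzyme genes, 0.93 ± 0.31 with an unadjusted p of 0.00867 and an adjusted p of 0.976. After quantile normalization it was 0.64, and with 1 rat left out it ran from 0.69 to 1.10. Akr1c14 was 0.72 ± 0.41, and 0.25 without vehicle rat 1. Hsd11b2 was -0.37 ± 0.48 and Hsd11b1 was 0.01 ± 0.42. At these errors a difference in the 3-MC response was not detectable at 3 rats a group.

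Ordered by mean log2 level, Hsd11b2 fell into 2 blocks. For Hsd11b2, E2 (10.58 ± 0.16, SD, n = 3) and E2+3-MC (10.17 ± 0.88) did not differ beyond their spread, nor did vehicle (7.42 ± 0.51) and 3-MC (7.39 ± 0.29). For Sult1a1 the order was vehicle (8.91 ± 0.42), 3-MC (8.60 ± 0.04), E2+3-MC (7.54 ± 0.32) and E2 (6.92 ± 0.14), and only the step from 3-MC to E2+3-MC passed the test. The rats of neighbouring groups did not overlap for Sult1a1 on the deposited scale, and those of E2+3-MC and E2 overlapped after quantile normalization. For Hsd11b1 the order was E2 (7.75 ± 0.17), E2+3-MC (7.46 ± 0.73), vehicle (6.77 ± 0.50) and 3-MC (6.48 ± 0.02), with no neighbours apart. For Akr1c14 it was E2+3-MC (8.21 ± 0.19), E2 (7.73 ± 0.10), vehicle (7.29 ± 0.82) and 3-MC (7.05 ± 0.21), again with no neighbouring step past the test. For Hsd17b4 the 4 means lay between 9.36 and 9.49, and for Hsd17b11 between 8.85 and 9.20.

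Other steroid-converting enzymes followed no single direction. Of 18 tested genes among the other hydroxysteroid dehydrogenases and reductases, 2 rose and 4 fell between vehicle and E2, with a median of -0.14. Over all genes tested 18.2% were called and the median was -0.11, and the counts of the lists that follow stand against the same values. Dhrs9, a short-chain dehydrogenase of retinoids and steroids, was 104, 70.3 and 41.1 in vehicle rats and 1917, 1397 and 1277 in E2 rats, a difference of 4.18 ± 0.36 with an adjusted p of 3.62e-07. Rdh16 was 293, 348 and 415 in vehicle rats and 76.6, 37.5 and 59.0 in E2 rats, a difference of -2.34 ± 0.23 with an adjusted p of 1.16e-06. Both were called under all 18 alternatives. Cbr1, a carbonyl reductase, fell by 1.31 with an adjusted p of 0.0425, but by 0.63 with an adjusted p of 0.0649 without vehicle rat 1, and only 8 of 18 alternatives called it. Akr1c19, a paralog of Akr1c14, fell by 1.24. With vehicle rat 1 left out, 6 of the list rose and 4 fell, while of all 10158 genes tested 2411 rose and 1136 fell. Hsd17b1, which makes estradiol from estrone and so opposes HSD17B2, was 102, 127 and 91.2 in vehicle rats and 102, 57.8 and 48.6 in E2 rats, a difference of -0.56 ± 0.22 with an adjusted p of 0.0813. Without vehicle rat 1 that adjusted p was 0.033. Hsd17b7, another gene of that reaction, was dim, at 0.35 ± 0.18. Hsd17b6, a dehydrogenase of the same list, was 193, 148 and 164 in 3-MC rats and 80.2, 93.9 and 74.6 in E2+3-MC rats, a difference of -0.90 ± 0.21 with an adjusted p of 0.0127. That call was lost without 3-MC rat 1, E2+3-MC rat 1 or E2+3-MC rat 3, at an adjusted p of up to 0.0812.

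Smaller lists gave few calls between vehicle and E2. Of 5 tested glucuronidation genes 1 rose, the beta-glucuronidase gene Gusb, by 0.80. Of 6 tested genes in a broad list for estrogen hydroxylation and methylation limma called 0, with 1 at an unadjusted p under 0.05. A place in this list does not mean that a gene acts on estrogens. In the latter list Cyp39a1 was -0.84 with an adjusted p of 0.0543, called under 6 of 18 alternatives, and Por, which passes electrons to cytochromes P450, was -0.52 with an adjusted p of 0.169. Cyp39a1 was -0.47 (adjusted p 0.101) and Por was -0.15 (adjusted p 0.525) without vehicle rat 1. Of 5 tested genes of steroid synthesis 1 fell, the cholesterol transfer gene Star, by 0.77, at an adjusted p of 0.0227. That call was lost without E2 rat 2 or E2 rat 3, at an adjusted p of up to 0.11. Cyp19a1 and Akr1c18 were not analysed here.

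The organelles of Hsd17b4 and Hsd17b11 were read the same way. Of 25 tested peroxisomal genes, 1 rose and 2 fell between vehicle and E2, with a median of -0.20. Ehhadh, the other bifunctional enzyme of peroxisomal oxidation beside HSD17B4, was 132, 77.5 and 58.6 in vehicle rats and 839, 706 and 766 in E2 rats, a difference of 2.96 ± 0.25 with an adjusted p of 2.69e-07. Phyh fell by 0.79 and Pex10 fell by 0.68. Both calls were lost without E2 rat 2 or E2 rat 3, at adjusted p-values up to 0.139, and that on Pex10 also without vehicle rat 2. Phyh was -0.50 without vehicle rat 1. Of 18 tested lipid droplet genes, with a median of -0.07, 4 fell: Cidec at -2.29, Plin1 at -1.71, Lipe at -1.06 and Pnpla3 at -0.86. Each of these calls was lost with any single E2 rat left out, at adjusted p-values up to 0.142, and those on Plin1 and Lipe also without vehicle rat 1. These 4 rest on few rats: without vehicle rat 1 they were -1.19, -1.01, -0.55 and -0.52, and 2 of the list fell while 5 rose. Of all 10158 genes tested, 1136 fell and 2411 rose without that rat. Cidec, Plin1 and Lipe are also adipocyte markers, whose sum was highest in vehicle rat 1.

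Among 7 tested sex steroid receptor and cofactor genes, Pgr rose by 0.68 (adjusted p 0.0363, called under 9 of 18 alternatives) and Ncoa1 fell by 0.87 (adjusted p 0.0222). Without vehicle rat 1 Pgr was 0.83 with an adjusted p of 0.00212 and Ncoa1 was -0.53 with an adjusted p of 0.0247. The call on Pgr was lost without either other vehicle rat, any E2 rat, 3-MC rat 1, 3-MC rat 3 or E2+3-MC rat 1, and that on Ncoa1 without E2 rat 2 or E2 rat 3. Esr1 was -0.46 ± 0.25 with an adjusted p of 0.209, and was called after quantile normalization only. It was -0.14 without vehicle rat 1, with an adjusted p of 0.579. In 3-MC minus vehicle, E2+3-MC minus E2 and the interaction, 0 genes of any of these lists were called.

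For each enzyme gene, the 2 tested genes with the most similar pattern over the 12 arrays were read by Pearson correlation of log2 levels, as a description. The arrays share 4 groups and differ in scale, and both can raise such correlations. Hsd11b2 was closest to Ly96 and Sat1 (both 1.00 when rounded) and, after quantile normalization, to Slc27a6 and Folr1 (both 1.00). Sult1a1 was closest to Gstm1 and Gfra2 (both 0.99) and then to Bmpr1b and Mt1 (both 0.99). Hsd11b1 was closest to Itga5 (0.98) and Manf (0.97), and then to Atp6v0e1 and Manf (both 0.98). Sult1e1 was closest to Ptprv (0.97) and Slco4a1 (0.96), and then to Cxcl6 and Olfm4 (both 0.98). Akr1c14 was closest to Rab13 (0.97) and mrpl9 (0.96), and then to Gask1b and RT1-S3 (both 0.96). For Hsd17b4, 536 tested genes exceeded 0.9 on the deposited scale and 3 after quantile normalization, and for Hsd17b11 463 and 0. The likeness of these 2 genes to others thus depends on the scale used. For Hsd11b2 the numbers were 662 and 888, and for Sult1a1 396 and 659. Hsd17b4 was closest to Ccpg1 and Rnf2 (both 0.98) and then to Trim2 (0.92) and Dguok (0.91). Hsd17b11 was closest to Vac14 (0.98) and Mrpl37 (0.97) and then to Rce1 and Wwp2 (both 0.86). Hsd17b2 was closest to Slc26a6 and Bid (both 0.91) and then to Slc1a1 and Plekhh1 (both 0.91).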

How the data were processed

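Uterine RNA of 12 rats was measured on 1 Affymetrix array each, per the labels' protocols. The authors deposited a linear intensity for every probe set; the submitters' processing notes name Affymetrix Expression Console and PLIER. Whether arrays were normalized to each other is, like software versions and genome build, not given in the sources used here. Of 29214 probe sets, 15316 had 1 distinct gene symbol, 317 had several and 13581 had no listed gene; 15285 had a gene ID found in RefSeq (GRCr8), and 0 symbols changed. The probe set with the highest mean was kept for the 528 genes with several, which left 14511 genes. Each of the 8 enzyme genes had 1 probe set.

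Values were transformed as log2(intensity + 16), and the 30% of genes with the lowest mean were left out of the tests. limma 3.58.1 in R 4.3.3 (lmFit, eBayes at default options) fitted 1 mean per group over all 12 arrays, with 8 residual and 8.92 prior degrees of freedom. P-values are two-sided and adjusted by the Benjamini-Hochberg method over 10158 genes. Differences of dim genes come from a fit of all genes. Intervals cover 95%, and the number of arrays limits precision; the median SE was 0.22. Fitting was tested on simulated data.

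The enzyme genes, the gene lists and the tests were chosen with earlier results of these data known. The text names the 8 enzyme genes, the 2 genes most like each, up to 4 called genes per list between vehicle and E2, or 2 by value where none was called, and fixed partners such as Sts, H6pd, Nr3c2 and Papss2. Rats are the replicates. The alternatives were quantile normalization, median centring, an offset of 1, no filter on dim genes, trend and robust options, the replicate number as a block, and leaving out each rat. The main fit treated the rats as unpaired. Of 18 correlations between same-numbered rats of different groups, 8 were over 0.1, in a range of -0.271 to 0.239. Among the E2, 3-MC and E2+3-MC groups, those of same-numbered rats were 0.0196 to 0.239 and those of differently numbered rats -0.172 to 0.0634. Whether same-numbered rats share a batch was not tested.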

Additional observations from a re-analysis of the deposited data

Results flagged for a closer look

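For Sult1a1, every rat given 3-MC was lower without estradiol and higher with it than the rats not given 3-MC. 3-MC minus vehicle was -0.31 ± 0.22, with all 3 3-MC rats below all 3 vehicle rats, and E2+3-MC minus E2 was 0.62 ± 0.22, with all 3 E2+3-MC rats above all 3 E2 rats. The test of the difference itself, the interaction, gave 0.93 ± 0.31 with an adjusted p of 0.976 by limma over all genes tested. The gap in the 3-MC comparison was between 383 and 387. Without vehicle rat 1 that difference was -0.07, and after quantile normalization the E2+3-MC and E2 rats overlapped.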

How the results depend on the processing

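All differences of the enzyme genes that passed the test kept their sign under all 18 alternatives. For the 6 tested enzyme genes over 6 comparisons and 18 alternatives, 590 values stayed on their side of the threshold with the same sign, 9 calls were lost, 16 were gained and 33 uncalled values changed sign. The 2 dim genes had an adjusted p only with no filter on dim genes, and 11 of their differences changed sign. Quantile normalization moved the numbers of genes called to 3906 (1935 higher, 1971 lower) in E2 minus vehicle against 1844 (883, 961), to 2650 (1299, 1351) in E2+3-MC minus vehicle against 796 (615, 181) and to 2648 (1389, 1259) in E2+3-MC minus 3-MC against 834 (693, 141). Median centring gave 1534 higher and 801 lower in E2 minus vehicle and 639 higher and 431 lower in E2+3-MC minus vehicle. In E2+3-MC minus E2, with 0 called, it called 1 gene, quantile normalization 2, an offset of 1 2, and the trend and robust options 3. With 1 rat left out, the genes called ran from 1000 to 3547 in E2 minus vehicle, 0 to 1 in 3-MC minus vehicle, 445 to 2703 in E2+3-MC minus vehicle, 0 to 112 in E2+3-MC minus E2 and 412 to 2179 in E2+3-MC minus 3-MC, and stayed 0 for the interaction. The highest counts came without vehicle rat 1, except for 3-MC minus vehicle, where it came without vehicle rat 2. Low counts were 1000 without E2 rat 3 and 1157 without E2 rat 2 in E2 minus vehicle, and 445 without E2+3-MC rat 3 and 467 without E2+3-MC rat 1 in E2+3-MC minus vehicle. In E2+3-MC minus 3-MC they were 412 without 3-MC rat 2, 498 without 3-MC rat 1, 448 without E2+3-MC rat 3 and 492 without E2+3-MC rat 1, and in E2+3-MC minus E2 18 genes were called without E2+3-MC rat 3. The enzyme genes called ran from 2 to 5, 0 to 0, 2 to 5, 0 to 0 and 2 to 4 in the same order. With the replicate number as a block, 2547, 1089 and 1140 genes were called in the comparisons of estradiol named above, with 3, 2 and 4 enzyme genes, the added one being Hsd11b1 in E2+3-MC minus 3-MC (adjusted p 0.038). E2+3-MC minus E2 and E2+3-MC minus 3-MC hold no vehicle rat, so leaving out vehicle rat 1 left their differences as they were and changed only the estimated errors. The cause of the other movements was not tested. An average over several probe sets per enzyme gene gave no value, because each has 1. Signal over background limits Hsd17b2 and Sult1e1, and 3 rats a group limit the rest.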
